A study of Atriplex prostrata and Atriplex rosea and Atriplex prostrata x Atriplex rosea with 87 samples.

Results

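The enzymes of plastid sulfate assimilation were followed in growing leaves of 2 Atriplex species, A. rosea with C4 and A. prostrata with C3 photosynthesis. The set was named by Arabidopsis locus and held 10 loci for 4 enzyme steps. These were 4 ATP sulfurylases (ATPS1 AT3G22890, ATPS2 AT1G19920, ATPS3 AT4G14680 and ATPS4 AT5G43780), 3 APS reductases (APR1 AT4G04610, APR2 AT1G62180 and APR3 AT4G21990), 1 sulfite reductase (SIR AT5G04590) and 2 APS kinases (APK1 AT2G14750 and APK2 AT4G39940). Of the 10, 8 were in the table used and all 8 passed the filter on low counts, among 14779 loci tested of 21971 used. ATPS3 and APR3 were not analysed here. The loci are those of a known pathway, but the set was chosen by a measured value, the difference between the species in read counts, so that difference is described below and carries no test. The change with leaf age and the difference between leaf parts within each species were tested. These tests used the same libraries as the choice of the set. A difference between the species that turns along the stages also bears on the age changes, so the age tests are not independent of the choice.

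A. rosea was sampled as whole leaves of 1, 5 and 7.5 mm and as bottom and top parts of 11 mm and 13 mm leaves. A. prostrata was sampled as whole leaves of 1, 5 and 7.5 mm and as bottom and top parts of 15 mm and 18 mm leaves. Matching between the species followed the leaf plastochron index, which expresses leaf age through leaf length and was -1.3, -0.7 and -0.35 for the whole leaves and 0.3 and 0.8 for the cut leaves. Leaves of 7.5 mm came as leaf 9 and leaf 10. All plants were wild-type plants as far as the labels say, were untreated, and grew under 17 h of light a day, with collection 2 h after the lights came on. Each species gave 8 groups of 3 libraries, which the series describes as biological triplicates.

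Sulfate taken up by a plant is chemically inert and must first be activated. ATP sulfurylase joins it to ATP to give adenosine 5′-phosphosulfate (APS), which stands at a branch point. APS reductase sends APS into reduction: it makes sulfite, sulfite reductase turns sulfite into sulfide, and sulfide is built into cysteine. APS kinase sends APS into sulfation: it makes PAPS, the sulfate donor for peptides and secondary metabolites. APS reductase is known from Arabidopsis as a main control point of the reducing branch. In the C4 grass maize, ATP sulfurylase and APS reductase are found mainly in bundle sheath cells.

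Library totals ran from 7647689 to 15360702 counts in A. rosea and from 8028511 to 12387428 counts in A. prostrata. Because the reference was Arabidopsis for both species, 1 Atriplex gene can feed several related loci, and a locus can read low where its sequence has drifted from Arabidopsis. The lowest count of a member in any library was 60, at APK2 in A. prostrata. Levels are given in CPM, read counts relative to library size, scaled by the trimmed mean of M-values (TMM), as mean ± SD over libraries, and because no gene lengths were used they are compared within a locus only. As checks of leaf tissue, the summed photosynthesis markers (3 of 4 in the table) reached at least 2695 CPM in the youngest and oldest leaves. The 3 root markers summed to at most 3.63 CPM there, with RHD6 at 0. The closest pair among 1128 pairs of libraries was the bottom and top replicate 1 of 15 mm A. prostrata leaves, whose counts differed by 1.14 times the sampling variance. That was closer than any pair of replicates. Over the 48 replicate pairs the lowest value was 1.2 times, in 1 mm A. prostrata leaves, the median 15.2 and the highest 100.4. No library was left out as a duplicate in the main fit, and whether the 15 mm pair shares material was not tested.

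Some loci of the set moved so closely together that they are uncertain as separate genes. The ratio of APR1 to APR2 counts stayed between 1.73 and 2.23 over the 24 libraries of A. rosea and between 1.22 and 1.42 over the 24 of A. prostrata. Within groups, log2 levels of APR1 and APR2 deviated from their group mean together, with r = 0.99 in each species. The ratio of APK1 to APK2 counts ran from 2.66 to 5.18 in A. rosea and from 3.09 to 5.60 in A. prostrata. With counts summed per enzyme step, the log2 difference between index 0.8 parts and 1 mm leaves was 2.90 for APR, -0.25 for APK, 1.28 for ATPS and 0.72 for SIR in A. rosea. In A. prostrata it was 0.23 for APR, 1.55 for APK, 1.09 for ATPS and 0.40 for SIR. No member had the same counts as another locus in every library, although 65 tested loci did.

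**Figure D1:**
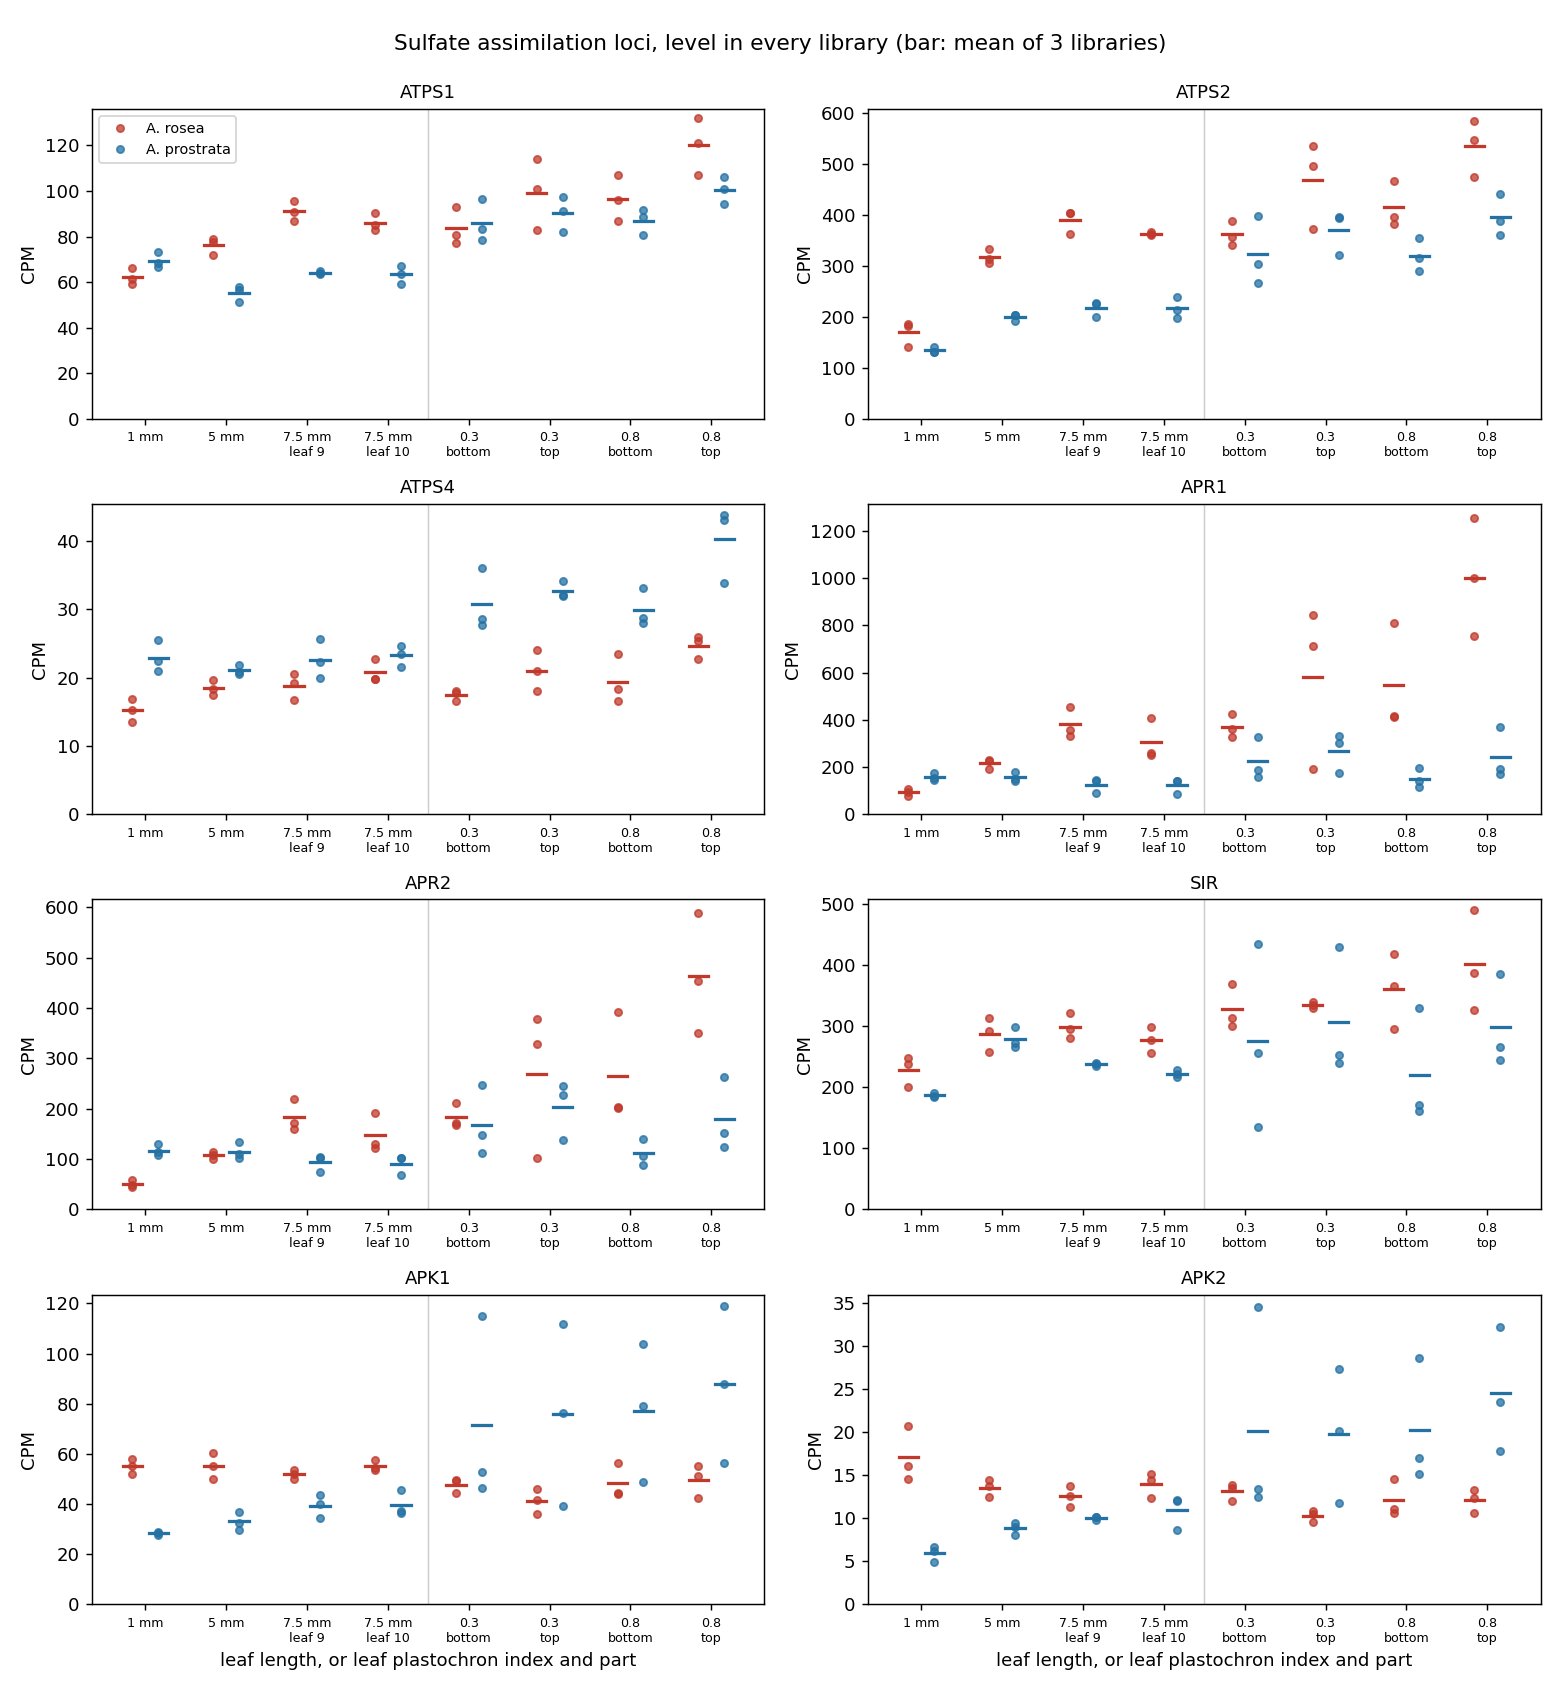
Level of each of the 8 loci in every library, in CPM on a linear axis from 0, for A. rosea (red) and A. prostrata (blue) at 8 matched stages; points are libraries and bars are means of 3. APR1 and APR2 climb with age in A. rosea, while APK1 and APK2 climb in A. prostrata with a wide spread among the libraries of cut leaves.

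With leaf age the reductase side of the APS branch point rose in A. rosea and the kinase side in A. prostrata. In A. rosea, APR1 and APR2 rose, at log2 fold changes of 3.01 ± 0.35 and 2.82 ± 0.32 (SE), and neither APK locus was called. In A. prostrata, APK1 and APK2 rose, at log2 fold changes of 1.54 ± 0.24 and 1.92 ± 0.26, and neither APR locus was called. ATPS2 rose in both species. The comparison set the 6 libraries of index 0.8 parts against the 3 libraries of 1 mm leaves. A call needed an adjusted p under 0.05 together with a log2 fold change of 1 or more in size. Bottoms and tops entered the fit as separate libraries. Same-numbered parts of 18 mm A. prostrata leaves deviated together over all tested loci (r = 0.2, 0.31 and 0.38). The adjusted p values in that species may therefore be too small. Whether the 2 age changes differ from each other was not tested.

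APR1 in A. rosea had 414, 413 and 812 CPM in the bottoms and 1001, 1256 and 754 CPM in the tops of index 0.8 leaves, against 77.7, 105 and 93.1 CPM in 1 mm leaves. Every older library lay above every 1 mm library, and the rise was 8.05-fold (adjusted p = 2.27e-09, edgeR quasi-likelihood test). In A. prostrata APR1 had 194, 141 and 115 CPM in the bottoms and 368, 193 and 169 CPM in the tops, against 153, 146 and 173 CPM in 1 mm leaves. There the older libraries lay on both sides of the 1 mm libraries, and the log2 fold change was 0.28 ± 0.31 (adjusted p = 0.432).

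APR2 followed APR1 in both species. Older A. rosea leaves had 201 to 589 CPM with a median of 372, against 45.1, 57.1 and 47.1 CPM in 1 mm leaves, with no overlap (adjusted p = 1.49e-09). Older A. prostrata leaves had 88.2 to 263 CPM with a median of 132, against 108, 113 and 129 CPM in 1 mm leaves, and the groups overlapped (log2 fold change 0.28 ± 0.28, adjusted p = 0.403).

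APK1, a plastid APS kinase in Arabidopsis, behaved the other way round. A. prostrata had 48.8, 79.1 and 104 CPM in the bottoms and 56.5, 87.9 and 119 CPM in the tops of index 0.8 leaves, against 27.5, 29 and 28.4 CPM in 1 mm leaves. All older libraries were higher than all 1 mm libraries, by 2.92-fold on the fitted means (adjusted p = 1.24e-06). A. rosea had 44, 56.3 and 44.5 CPM in the bottoms and 55, 51.2 and 42.4 CPM in the tops, against 55.3, 52 and 58 CPM in 1 mm leaves. Those groups overlapped, and the log2 fold change was -0.17 ± 0.23 (adjusted p = 0.527).

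APK2, a second plastid APS kinase in Arabidopsis, had 15.1 to 32.2 CPM in older A. prostrata leaves, against 4.9, 6.25 and 6.61 CPM in 1 mm leaves. The groups did not overlap, and the rise was 3.78-fold (adjusted p = 4.12e-08). In A. rosea it had 10.6 to 14.5 CPM with a median of 11.7 in older leaves, against 20.7, 14.5 and 16.1 CPM in 1 mm leaves. Older libraries lay at or below the young ones, but the log2 fold change of -0.50 ± 0.23 was not called (adjusted p = 0.0536).

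Among the ATP sulfurylases, which feed both branches, ATPS2 changed most. It averaged 476 ± 80.3 CPM in older leaves and 171 ± 24.7 CPM in 1 mm leaves of A. rosea, a log2 fold change of 1.47 ± 0.12 (adjusted p = 8.5e-13). In A. prostrata it averaged 359 ± 52.8 CPM in older leaves and 135 ± 4.83 CPM in 1 mm leaves, a log2 fold change of 1.40 ± 0.12 (adjusted p = 2.3e-12). In neither species did the 6 older libraries overlap the 3 young ones. ATPS1 and ATPS4 passed the adjusted p but not the fold threshold in both species. ATPS1 had log2 fold changes of 0.79 ± 0.09 in A. rosea and 0.43 ± 0.09 in A. prostrata, and ATPS4 had 0.52 ± 0.12 in A. rosea and 0.60 ± 0.11 in A. prostrata.

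SIR, the sulfite reductase, averaged 381 ± 68.8 CPM in older leaves and 228 ± 24.7 CPM in 1 mm leaves of A. rosea, with no overlap. Its log2 fold change of 0.74 ± 0.22 passed the adjusted p (0.00419) but not the fold threshold. In A. prostrata it averaged 259 ± 88 CPM in older leaves and 187 ± 3.03 CPM in 1 mm leaves, and the older libraries ran from 160.2 to 385 CPM around the young ones. The log2 fold change there was 0.46 ± 0.22 (adjusted p = 0.0679).

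In all, 3 of 8 members were called higher with age and 0 lower in A. rosea, where 15% of all tested loci were called higher and 10.3% lower. In A. prostrata 3 of 8 were called higher and 0 lower, where 15.2% of tested loci were called higher and 8.28% lower. Since APR1 and APR2 are uncertain as separate genes, counts of members may take 1 gene as 2. By adjusted p alone 6 of 8 members were higher in A. rosea and 5 of 8 in A. prostrata, beside 27.8% and 29.9% of tested loci. The libraries of the 2 ages did not overlap for 6 members in A. rosea and 5 in A. prostrata, beside 52.8% and 52.2% of tested loci. DESeq2 gave the same counts of called members, and at an unadjusted p under 0.05 edgeR had 1 member lower in A. rosea and 0 in A. prostrata. The median log2 fold change of the members was 0.76 in A. rosea and 0.53 in A. prostrata, beside -0.07 and -0.03 over all tested loci. Scaling by library totals alone moved the medians over all loci to -0.75 in A. rosea and -0.58 in A. prostrata. On that scale APR1 and APR2 in A. rosea (2.30 and 2.11) and APK1 and APK2 in A. prostrata (1.02 and 1.39) were still called. ATPS2 was no longer called (0.78 in A. rosea and 0.85 in A. prostrata), and APK2 was called lower in A. rosea (-1.18). The values of ATPS4 in A. rosea (-0.17) and of ATPS1, APR1, APR2 and SIR in A. prostrata (-0.13, -0.29, -0.29 and -0.10) turned negative without a call.

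The make-up of the samples changed with age too. The phloem marker SUC2 ran from 46.2 to 139 CPM in older leaves and from 15.5 to 22.1 CPM in 1 mm leaves of A. rosea, and from 23.2 to 76.1 CPM in older leaves and 10.8 to 14.5 CPM in 1 mm leaves of A. prostrata. The summed shoot meristem markers STM and KNAT1 ran from 0 to 0.432 CPM in older leaves and 36.5 to 47.7 CPM in 1 mm leaves of A. rosea, and from 2.12 to 5.75 CPM in older leaves and 50.2 to 53.3 CPM in 1 mm leaves of A. prostrata. The summed epidermis and stomata markers (3 of 4 in the table) ran from 269 to 391 CPM in older leaves and 616 to 676 CPM in 1 mm leaves of A. rosea, and from 488 to 604 CPM in older leaves and 442 to 461 CPM in 1 mm leaves of A. prostrata. Most of that sum was FDH, in A. rosea 604 to 661 CPM at 1 mm, 279 to 369 in index 0.8 bottoms and 255 to 309.6 in tops. Over all A. rosea libraries the stomatal markers were low, FAMA at 11.4 to 25.7 CPM and MUTE at most 2.65 CPM. The fall of the sum in A. rosea was thus that of FDH. The 2 xylem markers XCP1 and VND7 together ran from 46.1 to 78.9 CPM in older leaves and 19.6 to 23.1 CPM in 1 mm leaves of A. rosea, with like values in A. prostrata. Nearly all of that sum was XCP1, since VND7 reached at most 1.63 CPM in A. rosea and 1.97 CPM in A. prostrata. In bulk leaves, fewer cells of a type and less RNA per cell cannot be told apart. The part of these shifts in the results was not tested.

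**Figure D2:**
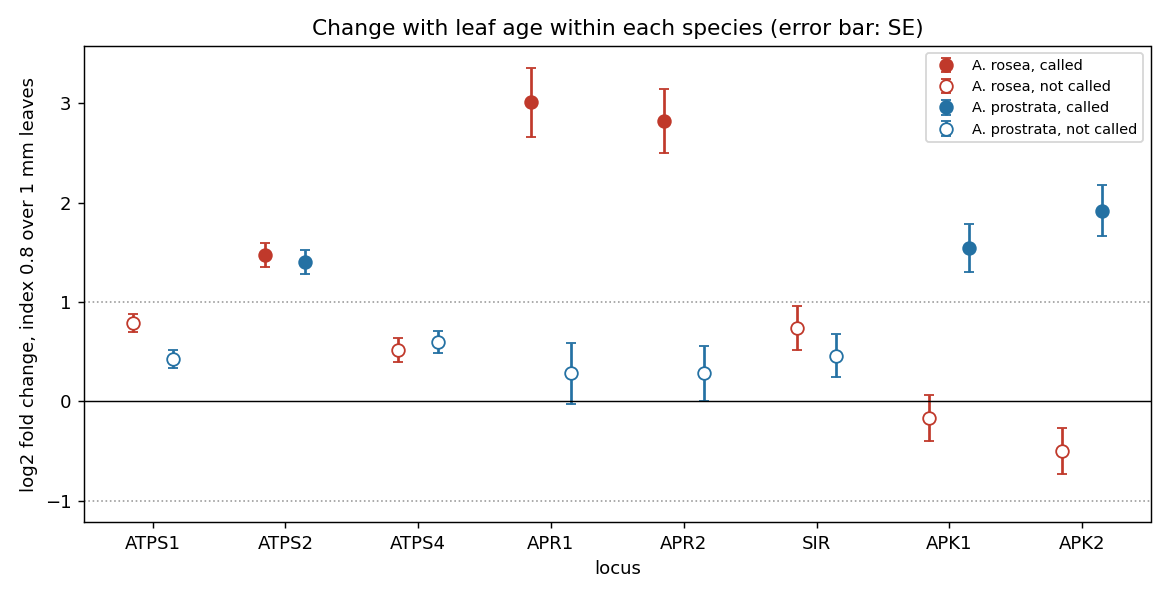
Log2 fold change of each locus between index 0.8 parts (6 libraries) and 1 mm leaves (3 libraries), with its SE, for A. rosea (red, left of each pair) and A. prostrata (blue); filled points were called and dotted lines mark the fold threshold. The APR loci stand near 3 in A. rosea and at 0.28 in A. prostrata, the APK loci are called in A. prostrata and not in A. rosea, and ATPS2 is called in both.

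The rise of the APR loci in A. rosea began between 1 and 5 mm. APR1 had 226, 192 and 229.9 CPM in 5 mm leaves, all above the 1 mm leaves, a log2 fold change of 1.23 ± 0.35 (adjusted p = 0.00891). APR2 had 108, 99.3 and 113 CPM in 5 mm leaves, a log2 fold change of 1.1 ± 0.33 (adjusted p = 0.0119). These were 2 of 8 members called higher, where 3.89% of tested loci were, and 4 of 8 passed the adjusted p alone, where 13.7% of loci were higher. APR1 and APR2 are uncertain as separate genes, so these counts may take 1 gene as 2. Without replicate 1 of the 1 mm leaves both lost their call, at adjusted p of 0.0533 and 0.0566 with log2 fold changes of 1.13 and 1.04, and with library totals 0 members were called. The later steps of A. rosea had 0 called members by edgeR or DESeq2, beside 0%, 5.23% and 0.318% of loci called higher. At an unadjusted p under 0.05, edgeR had 4 members higher from 5 to 7.5 mm, 0 from 7.5 mm to index 0.3 and 5 from index 0.3 to 0.8. Along the series APR1 in A. rosea averaged 92 ± 13.7 CPM at 1 mm, 216 ± 20.6 at 5 mm, 306 ± 87.5 in leaf 10 and 382 ± 63.6 in leaf 9 at 7.5 mm, 371 ± 50.1 in bottoms and 582 ± 345 in tops at index 0.3, and 547 ± 229.9 in bottoms and 1004 ± 251 in tops at index 0.8. Ranked by mean, the libraries of neighbouring groups from leaf 10 upward overlapped.

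In A. prostrata a member was called at 1 step, between 7.5 mm and index 0.3. APR2 was called higher there, where 10.3% of loci were, with a log2 fold change of 1.01 ± 0.23 (adjusted p = 0.000313), and APR1 lay just below the fold threshold at 0.99 ± 0.25 (adjusted p = 0.000849); with DESeq2 it was called too, at 1.02. APK1 and APK2 stood at 0.89 ± 0.19 and 0.92 ± 0.19 (adjusted p = 0.000106 and 8.44e-05). By adjusted p alone 7 of 8 members were higher at this step, all but SIR, where 28.9% of tested loci were higher. Which of these loci cleared the fold threshold changed with single libraries: the count of called members ran from 0 to 3 when 1 library was left out. Without both replicate 1 parts of 15 mm leaves, the closest pair of libraries, APR2 fell below the threshold at 0.79 and APK1 and APK2 were called at 1.21 and 1.23. Leaves 9 and 10 at 7.5 mm entered as separate libraries. Their same-numbered libraries differed by 1.8, 2.18 and 3.1 times the sampling variance, beside a median of 15.2 over replicate pairs. The adjusted p values of this step may therefore be too small. The other steps of A. prostrata had 0 called members by edgeR or DESeq2, beside 0.663%, 0.582% and 0.0203% of loci called higher. From 1 to 5 mm 1 member was higher by adjusted p alone, beside 2.56% of loci. At an unadjusted p under 0.05, edgeR had 2 members higher and 1 lower from 1 to 5 mm, 1 higher from 5 to 7.5 mm and 0 from index 0.3 to 0.8.

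Before that step APR1 and APK1 of A. prostrata stood differently against 1 mm leaves. APR1 had 138, 91.2 and 143 CPM in leaf 9 and 141, 85.4 and 141 CPM in leaf 10 at 7.5 mm, at or below the 146 to 173 CPM of 1 mm leaves. APK1 had 34.6, 43.6 and 39.9 CPM in leaf 9 and 36.4, 45.5 and 37.4 CPM in leaf 10, all above the 1 mm leaves. APK1 averaged 28.3 ± 0.765 CPM at 1 mm, 33.1 ± 3.74 at 5 mm, 39.4 ± 4.53 and 39.8 ± 4.96 in leaves 9 and 10 at 7.5 mm, 71.5 ± 37.9 and 75.8 ± 36.3 in bottoms and tops at index 0.3, and 77.2 ± 27.5 and 87.7 ± 31.2 in bottoms and tops at index 0.8. The libraries of adjacent groups in that order overlapped, except 5 mm against 1 mm leaves and index 0.3 bottoms against leaf 10, which just cleared each other.

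Between tops and bottoms of the cut leaves, averaged over index 0.3 and 0.8, 0 of 8 members were called in either species by edgeR or DESeq2. Few loci were called at all, 0.149% higher and 0.433% lower in A. rosea and 0.433% higher and 0.785% lower in A. prostrata. At an unadjusted p under 0.05, edgeR had 5 members higher in tops of A. rosea and 3 in tops of A. prostrata. In A. rosea the ATP sulfurylases passed the adjusted p without the fold, with log2 fold changes of 0.28 ± 0.07 for ATPS1, 0.37 ± 0.09 for ATPS2 and 0.31 ± 0.09 for ATPS4 (adjusted p = 0.0209, 0.0184 and 0.0469), beside 2.45% of loci higher by adjusted p alone. The larger estimate for APR1 in A. rosea, 0.76 ± 0.25, had an adjusted p of 0.0621. Without replicate 3 of the 11 mm tops it was 0.96 with an adjusted p of 0.0037, and APR2 then had an adjusted p of 0.00486, both still short of the fold threshold. At index 0.3 the A. rosea tops had 843, 712 and 190.3 CPM of APR1, against 361, 425 and 326 CPM in the bottoms, so that 1 top library lay below all bottoms and 2 lay above them. In A. prostrata APR1 had a top to bottom log2 fold change of 0.48 ± 0.25 (adjusted p = 0.187).

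Between the species the APR and APK loci changed places along the leaf series. These values chose the set and are given as a description. In 1 mm leaves APR1 had 77.7, 105 and 93.1 CPM in A. rosea, against 153, 146 and 173 CPM in A. prostrata, a log2 fold change of -0.77 ± 0.35. In index 0.8 tops it had 1001, 1256 and 754 CPM in A. rosea, against 368, 193 and 169 CPM in A. prostrata, a log2 fold change of 2.04 ± 0.36. APR1 was thus lower in A. rosea at 1 mm and higher from 5 mm on, with overlapping libraries at index 0.3 only. APR2 went from -1.23 ± 0.33 at 1 mm over -0.10 ± 0.32 at 5 mm to 1.37 ± 0.33 in index 0.8 tops.

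APK2 ran opposite, with log2 fold changes between A. rosea and A. prostrata of 1.53 ± 0.28 at 1 mm, 0.62 ± 0.28 at 5 mm, -0.60 ± 0.27 and -0.94 ± 0.28 in bottoms and tops at index 0.3, and -1.03 ± 0.27 in index 0.8 tops. It had 20.7, 14.5 and 16.1 CPM in 1 mm leaves of A. rosea, against 4.9, 6.25 and 6.61 CPM in those of A. prostrata. In index 0.8 tops it had 10.6, 12.3 and 13.3 CPM in A. rosea, against 17.8, 23.5 and 32.2 CPM in A. prostrata. APK1 had the same course, from 0.96 ± 0.27 at 1 mm to -0.83 ± 0.26 in index 0.8 tops. The signs of all 4 loci at these stages were the same with library totals.

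The other members kept nearly 1 order between the species. ATPS2 was higher in A. rosea at all 8 stages, by log2 fold changes of 0.16 to 0.84, and ATPS4 was lower at all 8, by -0.82 to -0.16. SIR lay between 0.05 and 0.71 and ATPS1 between -0.16 and 0.51, and at some stages their sign turned with library totals. Over the mean of the stages 1 of 8 members, APR1, passed both thresholds (1.05 ± 0.12), where 9.61% of loci were past them in that direction and 10.3% in the other. Nothing is read from that count.

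**Figure D3:**
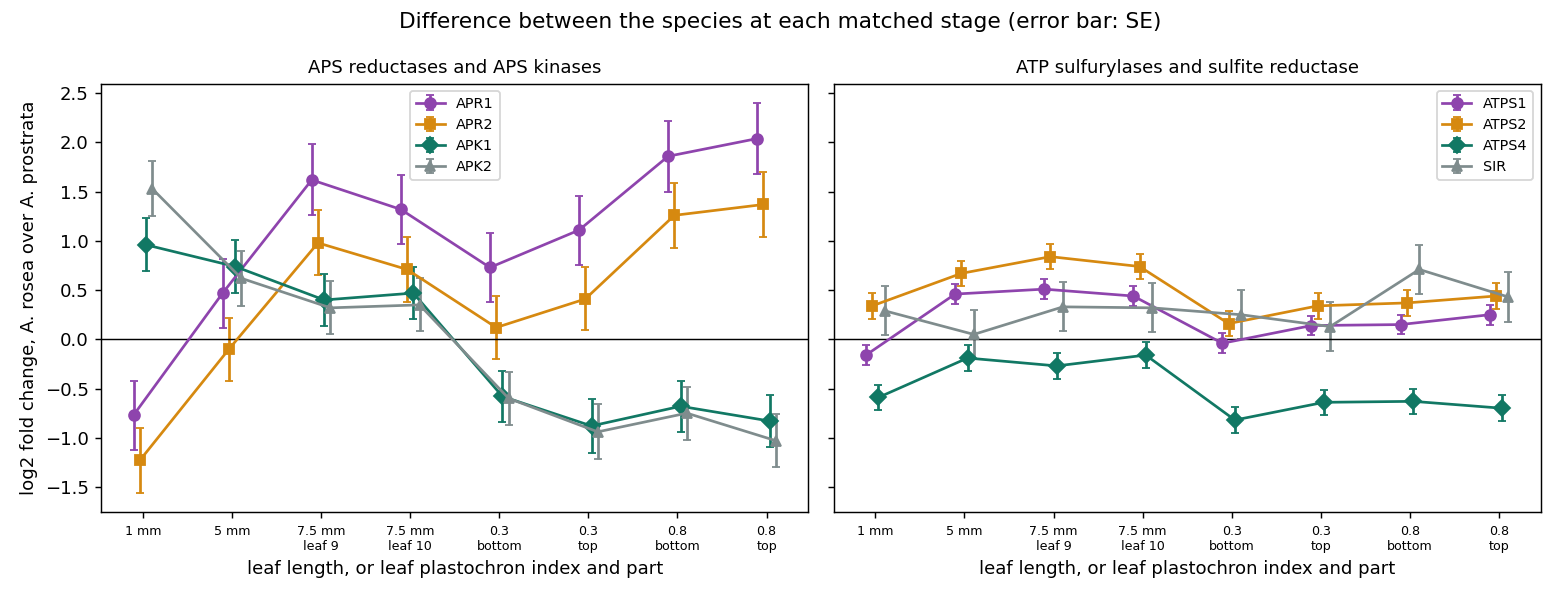
Log2 fold change between A. rosea and A. prostrata, with its SE, at 8 matched stages for the APS reductases and kinases (left) and the ATP sulfurylases and sulfite reductase (right). The APR loci run from below 0 at 1 mm to above 1 at index 0.8 and the APK loci from above 0 to below 0, while ATPS2 stays above and ATPS4 below 0 throughout.

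The balance of the branch point can be read within a library, which needs no scaling between libraries. In A. rosea the summed counts at APR1 and APR2 were 11.2, 8.68 and 21.9 times those at APK1 and APK2 in index 0.8 bottoms and 22.2, 29.1 and 19.8 times in tops, against 1.62, 2.44 and 1.89 times in 1 mm leaves. All 6 older libraries lay above the 3 young ones. In A. prostrata the same ratio was 5.21, 2.56 and 1.54 in bottoms and 8.5, 3.1 and 1.95 in tops, against 8.08, 7.33 and 8.63 in 1 mm leaves. Only 1 of those 6 older libraries, replicate 1 of the tops, fell within the range of the young ones, and the other 5 lay below it. At index 0.3 the ratio in A. prostrata was 9.69, 5.06 and 1.8 in bottoms and 11.3, 2.24 and 5.48 in tops. There the replicate 1 parts lay above all 1 mm libraries and the other replicates below them. The medians were 20.9 in index 0.8 parts and 1.89 in 1 mm leaves of A. rosea, and 2.83 in index 0.8 parts and 8.08 in 1 mm leaves of A. prostrata. Since reads of different loci match Arabidopsis to different degrees, the size of the ratio is not a ratio of transcripts.

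**Figure D4:**
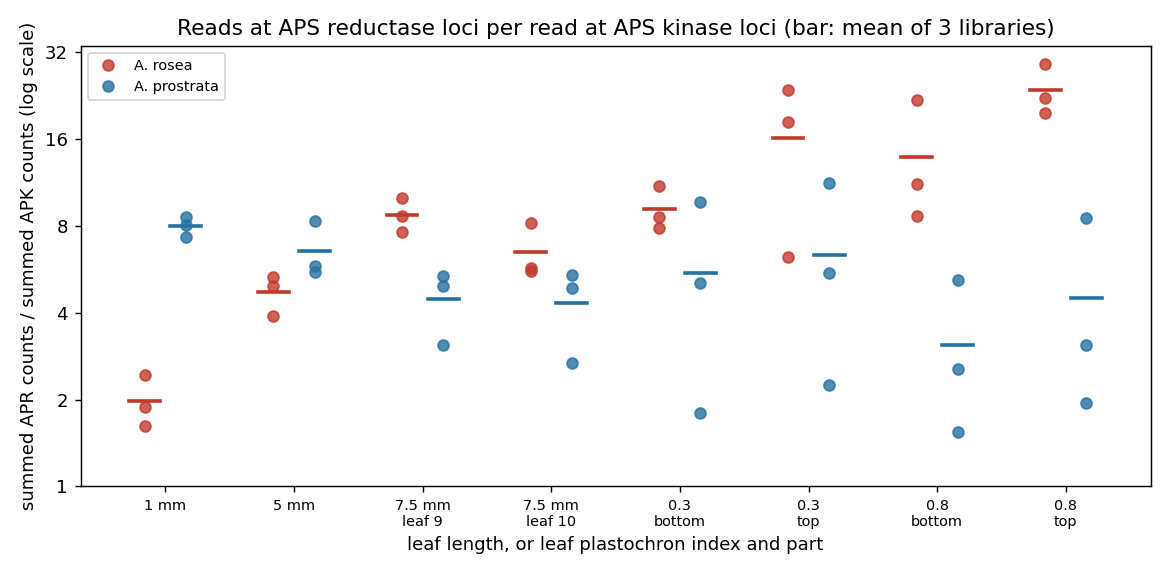
Summed counts at APR1 and APR2 divided by summed counts at APK1 and APK2 in every library, on a log axis, for A. rosea (red, left) and A. prostrata (blue) at 8 matched stages; bars are means of 3. Group means run from 1.98 at 1 mm to 23.7 in index 0.8 tops in A. rosea, and between 3.1 and 8.01 in A. prostrata. Single libraries spread from 1.62 to 29.1 in A. rosea and from 1.54 to 11.3 in A. prostrata.

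The members also differed in how much replicates varied. The biological coefficient of variation, the spread between replicates beyond counting error, was 29.3% for APR1 and 27.3% for APR2, at the 94.4th and 93rd percentile of all tested loci, whose median was 13.6%. It was 8.80% for ATPS1, 11.50% for ATPS2 and 9.73% for ATPS4, below that median. SIR, APK1 and APK2 stood at 21.1%, 22.2% and 21.7%. For these 3 loci the spread lay mainly in A. prostrata: the SD of log2 levels within groups was 0.17 for SIR, 0.13 for APK1 and 0.17 for APK2 in A. rosea, against 0.42, 0.47 and 0.44 in A. prostrata. In index 0.3 bottoms of A. prostrata SIR had 435, 256 and 135 CPM, while APK1 had 46.6, 52.8 and 115 CPM in the same libraries, replicates 1 to 3. The library highest in SIR was the lowest in APK1, and the lowest in SIR was the highest in APK1.

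The same opposition ran through the cut leaves of A. prostrata. Replicate 1 lay above its group mean in APR1 (log2 deviations of 0.62, 0.35, 0.40 and 0.68) and in SIR (0.82, 0.54, 0.66 and 0.39) in all 4 cut groups, and below it in APK1 (-0.49, -0.82, -0.59 and -0.57), in the order of bottoms and tops at index 0.3 and at index 0.8. Libraries of the same number thus recurred, and same-numbered tops and bottoms of 18 mm leaves deviated together over all tested loci (r = 0.2, 0.31 and 0.38). The libraries are therefore not independent, and the correlations that follow are a description without a test.

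Over the 24 libraries of A. prostrata, deviations of summed APR and summed APK levels from their group means had a Pearson r of -0.82 and a Spearman rho of -0.82. Without the 2 libraries farthest from the median in APR, r was -0.78. It was -0.75 in the 12 whole-leaf libraries and -0.86 in the 12 leaf parts. Among the whole leaves, number 2 of leaf 9 and of leaf 10 had the lowest APR1 deviations (-0.41 and -0.48). Those 2 libraries differed by 2.18 times the sampling variance and may not be independent. SIR and summed APK had r = -0.86 and rho = -0.76, with r = -0.88 in leaf parts but 0.05 in whole leaves, so that relation rested on the cut leaves. In A. rosea summed APR and summed APK had r = 0.2 and rho = 0.19. Whether the relation differs between the species was not tested.

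Other measures moved with these deviations. In A. prostrata the phloem marker SUC2 had r = 0.69 and rho = 0.60 with summed APR and r = -0.61 and rho = -0.62 with summed APK. Without the 2 farthest libraries these were r = 0.58 and r = -0.50. The TMM factor had r = -0.49 with APR and 0.33 with APK in A. prostrata. In A. rosea the TMM factor had r = -0.83 with SIR, -0.71 with ATPS, -0.53 with APR and 0.4 with APK. Levels had been divided by this factor, so a relation between the 2 is partly built in. Nothing is read from the r values of the TMM factor. The parts of leaf make-up and scaling in these relations were not tested.

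**Figure D5:**
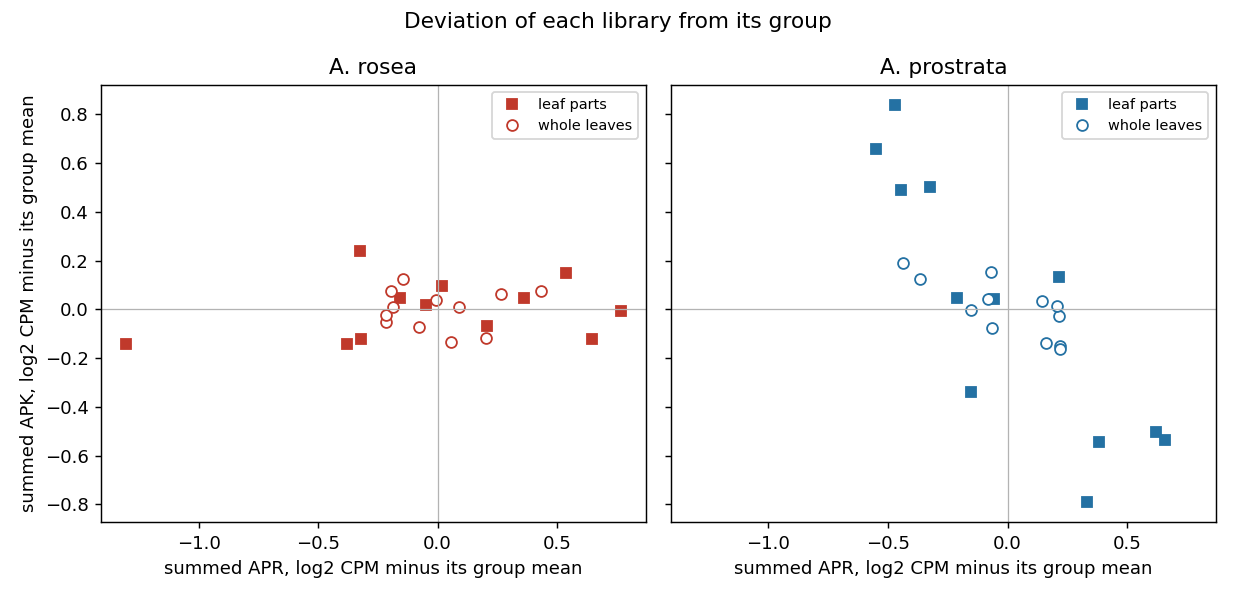
Deviation of each library from its group mean in summed APR (horizontal) and summed APK level (vertical), both in log2 CPM, in A. rosea (left, red) and A. prostrata (right, blue); squares are leaf parts and open circles whole leaves. The A. prostrata points fall along a descending line (r = -0.82), while those of A. rosea vary in APR with little change in APK (r = 0.2).

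The steps around the set were followed in 5 lists of related genes, with 35 tested loci. Of 10 tested sulfate transporters, 8 rose with age in A. rosea and 3 in A. prostrata, and 0 were called lower in either species. Over all tested loci 15% were called higher with age in A. rosea and 15.2% in A. prostrata, and the counts of all 5 lists stand beside those shares. SULTR3;4 averaged 172 ± 56.8 CPM in older leaves and 35.3 ± 2.77 CPM in 1 mm leaves of A. rosea, a log2 fold change of 2.24 ± 0.21 (adjusted p = 9.22e-12). In A. prostrata it averaged 149 ± 23.5 CPM in older leaves and 45 ± 3.02 CPM in 1 mm leaves, a log2 fold change of 1.72 ± 0.20 (adjusted p = 2.32e-09). SULTR3;3 rose in both species, by log2 fold changes of 2.11 ± 0.19 in A. rosea and 1.81 ± 0.18 in A. prostrata. SULTR3;1, which carries sulfate into plastids in Arabidopsis, was called in A. rosea only (1.62 ± 0.17, beside 0.60 ± 0.16 in A. prostrata), and the difference was not tested. Reads of SULTR3;1 and SULTR3;2 may be shared, so these loci are uncertain as separate genes.

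Downstream of sulfide, 6 of 6 tested cysteine synthesis loci rose in A. rosea and 5 of 6 in A. prostrata, beside 15% and 15.2% of all tested loci. OASB, the plastid enzyme that joins sulfide to O-acetylserine, averaged 855 ± 91.4 CPM in older leaves and 326 ± 28.2 CPM in 1 mm leaves of A. rosea (log2 fold change 1.39 ± 0.14, adjusted p = 1.43e-10). It averaged 730 ± 186 CPM in older leaves and 315 ± 4.68 CPM in 1 mm leaves of A. prostrata (1.2 ± 0.14, adjusted p = 3.73e-09). CYSC1, a mitochondrial enzyme that detoxifies cyanide with cysteine, had the largest change of that list in both species, 2.99 ± 0.26 in A. rosea and 2.59 ± 0.25 in A. prostrata. Of 6 tested glutathione and methionine loci 2 rose in each species, beside 15% and 15.2% of all tested loci. They were CGS1 and MS2, the first and last steps of methionine synthesis. CGS1 had log2 fold changes of 1.81 ± 0.15 in A. rosea and 1.13 ± 0.15 in A. prostrata.

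Among 7 other loci of activation and reduction, 1 rose in A. rosea, a share near the 15% of all tested loci, and 3 in A. prostrata, beside 15.2%. The 1 in A. rosea was UPM1 (1.33 ± 0.19), which makes a precursor of siroheme, the cofactor of sulfite reductase. The 3 in A. prostrata were APK4, another plastid APS kinase (1.45 ± 0.25), PAPST1, which carries PAPS out of plastids (1.23 ± 0.14), and SIRB, the last enzyme of siroheme synthesis (1.02 ± 0.12). APK4 averaged 46.1 ± 1.63 CPM in older leaves and 54.6 ± 4.24 CPM in 1 mm leaves of A. rosea, without a call (-0.24 ± 0.23, adjusted p = 0.369). Of 6 tested regulators and sulfur response loci, 4 rose in A. rosea and 2 in A. prostrata, beside 15% and 15.2% of all tested loci. LSU3, which sulfur shortage induces in Arabidopsis, rose in both, by 2.64 ± 0.38 in A. rosea and 2.42 ± 0.37 in A. prostrata. SDI1 and SDI2, also named for sulfur deficiency in Arabidopsis, were called in A. rosea only (1.38 ± 0.45 and 1.39 ± 0.41, beside 0.31 ± 0.36 and 0.58 ± 0.35 in A. prostrata), and the difference was not tested. Across the 5 lists 0 loci were called lower with age by edgeR.

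These list counts leaned on the scaling. With library totals, transporters called higher were 2 in A. rosea and 3 in A. prostrata, cysteine loci 1 in each, and glutathione and methionine loci 1 in A. rosea and 0 in A. prostrata. Regulators called higher were then 1 in A. rosea and 2 in A. prostrata, and of the other activation and reduction loci 0 were called higher in either species and 1 lower in A. prostrata.

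The loci whose levels were most like those of the set, by Pearson r over 16 group means of log2 CPM, are given as a description, since all groups share species and age. For APK1 the first was APK4 (r = 0.966), and reads of related kinases may be shared between them. Next came GASA3, a GAST1 homolog, and AT5G11970, of unknown function (r = 0.949 and 0.944). For APR1 they were AT5G56450, of the mitochondrial carrier family, the ACC synthase homolog ACS12 (AT5G51690) and ISPD, an enzyme of plastid isoprenoid synthesis (r = 0.952, 0.949 and 0.948). For ATPS2 they were HCF106, of thylakoid protein transport, AT2G36885, of unknown function, and CLPP3, a plastid protease subunit (r = 0.984, 0.983 and 0.982). For SIR they were SS3, a starch synthase, the plastid-encoded NDHG, and EMB2247, a valine tRNA ligase (r = 0.953, 0.941 and 0.94).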

How the data were processed

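RNA was sequenced from leaves of A. rosea and A. prostrata on an Illumina platform with 12 libraries per lane, per the labels' protocols. The authors deposited 1 table of raw read counts per Arabidopsis locus. The submitters' processing notes name CASAVA, DESeq2 and TAIR10 with no version. For the aligner, the counter and the use of strand: not given in the sources used here. Of the count columns, 48 were matched to labels (letters a and b as bottom and top, per the series' design text) and 12 were not used, nor were leaves of index 1.5 or the F1 hybrid. Leaf 9 columns were matched as groups, so their replicate numbers are uncertain. 5 loci with values out of their columns were left out of 21976.

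The deposited counts went into edgeR 4.0.16 under R 4.3.3, with 1 mean per group over 48 libraries, TMM scaling (factors 0.653 to 1.31), default filter by group, quasi-likelihood F test, Benjamini-Hochberg adjustment over 14779 loci. SE was taken as the size of a log2 fold change over the root of its F value. The common biological coefficient of variation was 15.7%. The fit was checked on simulated counts with the same spread for all loci and independent libraries. That setting does not cover the wide spread of some members or libraries that deviate together. Members and lists were chosen with earlier results of these data known. All members are named in each comparison. From each list at most the 4 largest called changes, and per enzyme step the 3 loci most like its highest member, could be named; values of a named locus in the other species are given beside it. Alternatives were other scalings, DESeq2 1.42.0, no filter, a replicate block, 1 species at a time, counts summed per enzyme step and leaving out libraries. Same-numbered libraries deviated together in all 3 pairs for tops and bottoms of 18 mm A. prostrata leaves (r 0.2 to 0.38) and in 0 of the other 9 pairs of groups checked. Leaf 9 against leaf 10 was not among those checked. Their same-numbered columns differed by 1.8, 2.18 and 3.1 times the sampling variance in A. prostrata and, for number 2, by 2.84 times in A. rosea. A pair of unlike numbers in A. prostrata stood at 3.32. Steps through 7.5 mm took leaves 9 and 10 as separate libraries, so their p values may be too small. Lane and read length are not given per library, so their effects cannot be told apart from the groups.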

Additional observations from a re-analysis of the deposited data

Results flagged for a closer look

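APK2, an APS kinase of the set, moved with age in opposite directions in the 2 species. Its log2 fold change between index 0.8 parts and 1 mm leaves was -0.50 in A. rosea and 1.92 in A. prostrata. The 6 older A. rosea libraries lay at or below the 3 young ones and the 6 older A. prostrata libraries above theirs. APK4, a further APS kinase outside the set, had a log2 fold change of -0.24 in A. rosea and 1.45 in A. prostrata, with every older library on opposite sides of the young ones in the 2 species. These differences between the species were not tested, and neither negative value passed the threshold by itself. Reads of APK1, APK2 and APK4 may be shared between the loci.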

How the results depend on the processing

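In the age comparisons the count of called members (3 higher, 0 lower in each species) was the same with DESeq2 size factors, DESeq2 itself, no filter, 1 species at a time and in each fit without 1 library. By adjusted p alone, 6 members were higher in A. rosea and 5 in A. prostrata (loci 4112 higher and 4804 lower in A. rosea, 4417 and 4682 in A. prostrata). Tops then had 3 members higher in A. rosea, with 362 loci higher and 338 lower, against 1082 and 997 in A. prostrata. The steps had 4 members from 1 to 5 mm in A. rosea, 1 in A. prostrata, and 7 from 7.5 mm to index 0.3 in A. prostrata.

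Library totals left 134 values the same, and the cause of the other changes was not tested. With them, the age change in A. rosea had 1 member lower (APK2), 1063 loci higher and 5188 lower, and that in A. prostrata 1165 loci higher and 3909 lower. Calls that were higher made up 17% in place of 59.3% in A. rosea and 23% in place of 64.7% in A. prostrata. Tops had 14 loci higher and 104 lower in A. rosea and 42 and 184 in A. prostrata. Higher shares were 11.9% in place of 25.6% in A. rosea and 18.6% in place of 35.6% in A. prostrata. Signs turned for ATPS4 in A. rosea (-0.17) and for ATPS1 (-0.13), APR1 (-0.29), APR2 (-0.29) and SIR (-0.10) in A. prostrata with age, and for SIR in A. rosea tops (-0.04). In A. rosea steps they turned for APK1 (-0.25, 1 to 5 mm), SIR (-0.02, 5 to 7.5 mm), ATPS1, ATPS2 and SIR (-0.22, -0.14 and -0.06, 7.5 mm to index 0.3) and APK2 (-0.08, index 0.3 to 0.8), and in A. prostrata for ATPS2 (-0.03, index 0.3 to 0.8). Steps from 1 to 5 mm in A. rosea and 7.5 mm to index 0.3 in A. prostrata then had 0 called members.

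That A. prostrata step had 2 called members with DESeq2 size factors, DESeq2, no filter, or without both replicate 1 parts of 15 mm leaves, a setting chosen after seeing the data. That setting gave SIR -0.02 there, SIR 0.21, APK1 -0.12 and APK2 -0.09 from index 0.3 to 0.8, and 148 loci higher and 231 lower in tops. With A. rosea libraries alone, its tops had 14 loci higher.

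Leaving out 1 library gave 2169 to 2388 loci higher and 1395 to 1582 lower with age in A. rosea, and 2195 to 2365 and 1105 to 1275 in A. prostrata. In tops it gave 4 to 89 loci higher and 23 to 112 lower in A. rosea, and 38 to 141 and 53 to 197 in A. prostrata, with 0 members called. Called members ran from 0 to 2 in the 1 to 5 mm step of A. rosea and from 0 to 3 in the 7.5 mm to index 0.3 step of A. prostrata. Signs turned for APK1 (-0.06 to 0.40) and APK2 (-0.02 to 0.44) in A. prostrata tops and for APK1 (-0.06 to 0.07) in the 1 to 5 mm step of A. rosea.

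With the replicate number as a block, 0 calls of members changed: 3 higher with age in each species and 0 in tops. Loci called were 2209 higher and 1518 lower with age in A. rosea, 2218 and 1234 in A. prostrata, 18 and 52 in A. rosea tops and 67 and 102 in A. prostrata tops. Same-numbered libraries deviated together in all 3 pairs for 18 mm A. prostrata tops and bottoms but not for 15 mm leaves, A. rosea parts or across ages, so the numbers are not taken as pairs of whole comparisons, and leaf 9 allowed no block in steps through 7.5 mm. Counts summed per enzyme step left 48 values between the species close to the value of the locus, judged against its SE, and moved 24. Depth limits APK2 most, with 60 counts in its lowest library.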
